A study of Rattus norvegicus with 12 samples.

Results

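Lungs of monocrotaline (MCT)-treated rats that received angiotensin II (AngII) were compared with lungs of MCT rats that received the phosphate-buffered saline vehicle, by RNA sequencing. The comparison holds 6 of the 12 libraries of the series, 3 of the AngII group and 3 of the vehicle group, chosen by their labels, and all 17836 genes of the AngII table. The animals were male Sprague-Dawley rats of 5 to 6 weeks at the start, with a labelled age of 9 weeks, and both groups received 1 dose of MCT at 60 mg/kg. AngII was infused from an osmotic minipump at 1 mg/kg/day. The pumps were placed 1 week after MCT and ran for 2 weeks in the rats used for histology and hemodynamics, whereas no timing is stated for the sequenced lungs. Both groups received the same MCT dose, so the comparison holds no healthy lung. The extent of injury in each sequenced lung is not known here. Libraries are named by group and animal number, Ang2_922, Ang2_931 and Ang2_933 for AngII and Veh_923, Veh_924 and Veh_963 for vehicle, and values per library are given in that order. Levels are in FPKM, the authors' counts scaled to gene length and library size, and differences are log2 fold changes of AngII over vehicle from edgeR, with n = 3 rats per group.

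AngII is the peptide hormone of the renin-angiotensin system. It acts on the AT1 receptor (AT1R) of vascular muscle, endothelium, fibroblasts and immune cells, which signals through Gq and phospholipase C, through other G proteins, and through the β-arrestins. Its acute effect is vasoconstriction, and its sustained effects include growth factor transactivation, matrix production, oxidant production by NADPH oxidases and inflammation. MCT is a plant alkaloid that the liver turns into a reactive product that injures lung endothelium, and the rats go on to develop pulmonary hypertension with vessel remodeling and inflammation.

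The libraries of the AngII group did not lie together, which bears on each result here. Ang2_922 lay next to the vehicle libraries on the first principal component of log2 CPM, at -16.3 against -42.9 to -19.4 for vehicle, whereas Ang2_933 was at 40.0 and Ang2_931 at 63.8. Its closest library was Veh_923, with a correlation of 0.967 across genes. Each library held 17240865 to 20080943 counted reads. Mitochondrial transcripts took 9.62%, 12.1% and 12.3% of counts with AngII and 6.52%, 7.55% and 5.65% with vehicle, so that Ang2_922 was on the side of its own group for this measure. The exact two-sided permutation test of that share gave p = 0.1, the smallest that 3 against 3 can give. Fold changes also moved with gene length, with a median of 1320 bases for genes higher and 2628 bases for genes lower at an unadjusted p under 0.05, against 2006 bases for all genes tested. The lung held high levels of its defining transcripts in both groups, with Sftpc, the alveolar type 2 surfactant protein C, at 12441, 11653 and 11813 FPKM with AngII and 13944, 5721 and 11506 FPKM with vehicle.

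**Figure D1:**
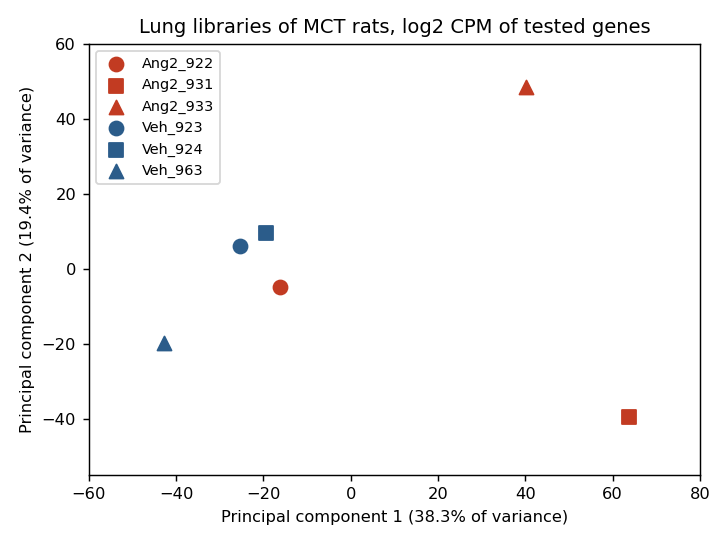
Position of the 6 libraries on the first 2 principal components of log2 CPM of the tested genes, with the share of variance on each axis. Ang2_922 sits with the vehicle libraries on component 1 (38.3% of variance), and Ang2_931 and Ang2_933 lie apart from them and from each other on component 2 (19.4%).

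Of 15059 genes tested, edgeR called 2 (0.0133%) at an adjusted p under 0.05, 1 lower and 1 higher with AngII. RT1-CE16, a class I major histocompatibility (MHC) gene that presents peptides to CD8 T cells, was at 3.44, 2.13 and 3.89 FPKM with AngII and 108, 100.2 and 229.5 FPKM with vehicle. The groups did not overlap, and the log2 fold change was -5.40 (edgeR adjusted p = 0.00658, SE 0.402). The gene was also near absent or abundant in different rats of 1 group, at 3.76, 198.3 and 3.73 FPKM in the 3 MCT rats given losartan, an AT1R blocker. In the 3 given TRV023, a β-arrestin-biased ligand of AT1R, it was at 2.54, 3.21 and 3.09 FPKM, and each of these groups is in a table of its own. Sprague-Dawley rats are outbred, and the part that MHC haplotypes of single rats have in this difference was not tested. The rat RT1 class I genes are near-identical copies, so reads may be assigned to the wrong copy. AY172581.9, the 12S ribosomal RNA of the mitochondrial genome at MT:68-1025, was at 1263, 1224 and 1191 FPKM with AngII and 469.5, 543 and 399 FPKM with vehicle. Here too the groups did not overlap, and the gene rose by 1.52 on the log2 scale (edgeR adjusted p = 0.0347, SE 0.151). Ang2_922 was the highest of the 6 libraries in FPKM, but not with the TMM scaling behind the fold changes. The edgeR count was 3 without Ang2_922, 0 without Ang2_931 or Ang2_933, and 1 without Veh_924 or Veh_963. At an unadjusted p under 0.05, 985 genes (6.54%) were higher and 811 (5.39%) lower, and the groups did not overlap, AngII higher, for 1425 genes (9.46%) or, AngII lower, for 1381 (9.17%). DESeq2 called 152 higher genes (0.925% of 16424) and 52 lower genes (0.317%). Its count of 204 was 1308 without Ang2_922, 69 without Ang2_931 and 108 without Ang2_933. Without Ang2_922 the unadjusted lower count was 1690, without Ang2_931 it was 469 and without Ang2_933 it was 531, and the higher count was 551 without Ang2_931. Genes that pass neither test are described by their values, as higher or lower at an unadjusted p. Each count of list members below is to be read beside the shares of all tested genes, 6.54% higher and 5.39% lower. Counts of DESeq2 calls are to be read beside 0.925% higher and 0.317% lower.

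Among named genes with a mean of at least 1 FPKM, non-overlapping groups and the smallest edgeR p, the 12 higher genes included several with known roles in leukocytes. Ltb, the lymphotoxin beta subunit that B and T cells display to organise lymphoid tissue, was at 44.00, 49.3 and 38.8 FPKM with AngII and 19.4, 21.7 and 22.7 FPKM with vehicle. Each AngII library was well above the highest vehicle library, and the log2 fold change was 1.19 (edgeR adjusted p = 0.133, SE 0.153, DESeq2 adjusted p = 3.7e-07). Tnfaip8l2, a restraint on immune receptor signalling in myeloid and T cells, was at 64.9, 70.3 and 77.4 FPKM with AngII and 44.03, 43.5 and 41.2 FPKM with vehicle. Crlf2, the receptor subunit for the cytokine TSLP, was at 58.5, 63.3 and 59.6 FPKM with AngII and 43.2, 40.96 and 37.7 FPKM with vehicle. For both genes the 3 vehicle libraries lay close together and below every AngII library, Ang2_922 included. Their log2 fold changes were 0.86 (SE 0.128) and 0.71 (SE 0.122). Unc93b1, which carries nucleic-acid-sensing Toll-like receptors to the endosome, was at 86.2, 87.6 and 88.3 FPKM with AngII and 65.8, 55.4 and 63.01 FPKM with vehicle. Hmha1, a GTPase-activating protein of blood cells, was at 58.7, 56.7 and 60.3 FPKM with AngII and 44.2, 42.8 and 37.9 FPKM with vehicle. In these the AngII libraries spanned a narrow range, and the log2 fold changes were 0.64 (SE 0.1202) and 0.63 (SE 0.117). Mcpt10, a mast cell protease, was at 373, 313 and 315 FPKM with AngII and 234, 247 and 213 FPKM with vehicle. Limd2, a small LIM domain protein, was at 151, 144 and 123 FPKM with AngII and 88.3, 98.3 and 94.7 FPKM with vehicle. Their log2 fold changes were 0.66 (SE 0.119) and 0.71 (SE 0.1204). Ang2_922 was the highest library in FPKM for both, but with TMM scaling not for Limd2.

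The remaining higher genes of this set have other roles. Gdf15, a stress-induced cytokine of the TGF-beta family, was at 53.1, 60.1 and 56.5 FPKM with AngII and 38.96, 33.5 and 29.9 FPKM with vehicle. Its AngII libraries differed little from each other and lay above the highest vehicle library, with a log2 fold change of 0.87 (edgeR adjusted p = 0.263, SE 0.151, DESeq2 adjusted p = 0.000805). Rps19, of the small subunit of the ribosome, was at 327, 323 and 309.5 FPKM with AngII and 205, 178 and 187 FPKM with vehicle, and its log2 fold change was 0.89 (edgeR adjusted p = 0.133, SE 0.113, DESeq2 adjusted p = 6.88e-08). Hes6, a helix-loop-helix repressor related to the Notch effectors, was at 28.1, 27.1 and 25.3 FPKM with AngII and 17.98, 14.9 and 18.5 FPKM with vehicle, with 0.78 (SE 0.147) on the log2 scale. Tmem160, a membrane protein, was at 53.1, 68.3 and 52.3 FPKM with AngII and 33.04, 32.5 and 31.2 FPKM with vehicle, with 0.98 (SE 0.162), and Mt-atp8 is described with the mitochondrial genome. All 12 of these higher genes were called by DESeq2, at adjusted p values from 6.88e-08 to 0.00328, against edgeR adjusted p values from 0.133 to 0.295. The set was chosen for small p and separated groups in the same counts, so the separation and the DESeq2 calls are a description.

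**Figure D2:**
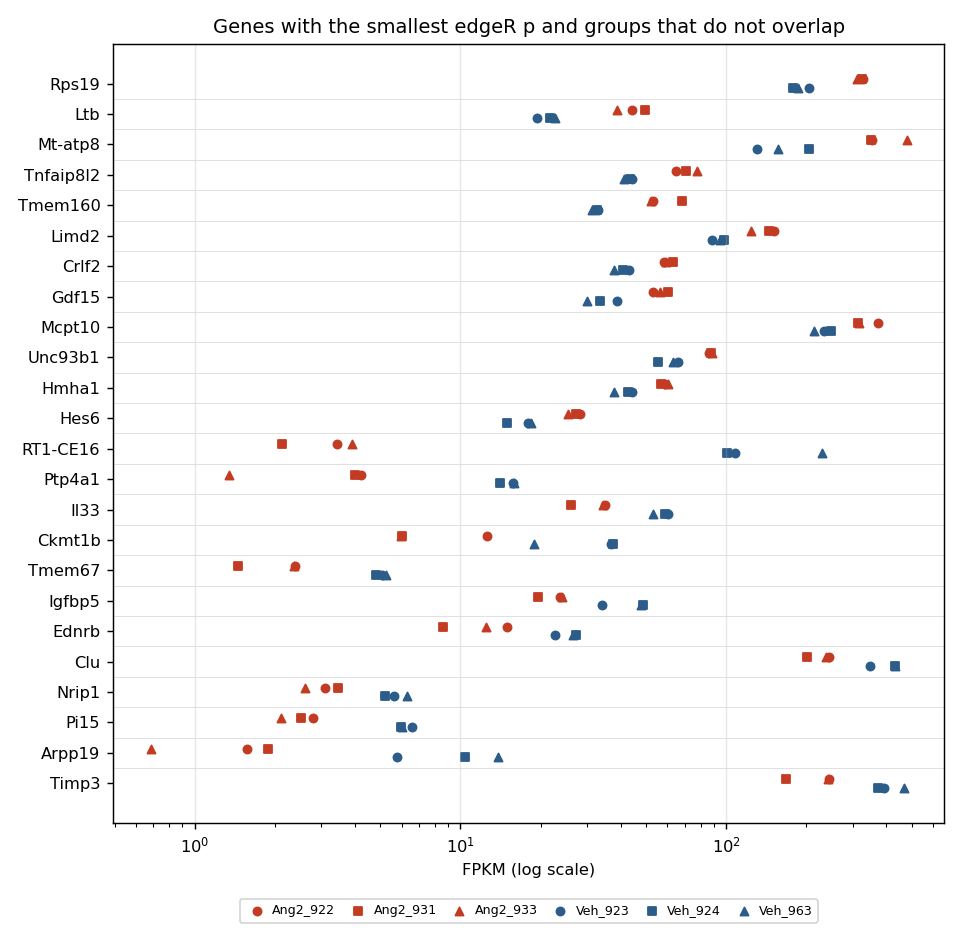
FPKM on a log axis in each library for the 12 higher and 12 lower named genes with the smallest edgeR p and non-overlapping groups. Red symbols are AngII libraries and blue symbols vehicle libraries, and the widest gap is that of RT1-CE16, at 2.13 to 3.89 FPKM with AngII and 100.2 to 229.5 FPKM with vehicle.

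The 12 lower genes of the same rule included RT1-CE16 and several genes known from stromal, endothelial or epithelial cells. Ednrb, the type B endothelin receptor of endothelium, which clears endothelin-1 and couples to nitric oxide and prostacyclin, was at 14.99, 8.56 and 12.4 FPKM with AngII and 22.7, 27.3 and 26.5 FPKM with vehicle. Ang2_931 had the lowest level, and Ang2_922 the level nearest to vehicle, and the log2 fold change was -0.96 (edgeR adjusted p = 0.295, SE 0.195, DESeq2 adjusted p = 0.00475). Il33, an alarmin stored in the nuclei of lung epithelial and stromal cells, was at 35.1, 25.97 and 34.5 FPKM with AngII and 60.1, 58.97 and 53.1 FPKM with vehicle. Igfbp5, a matrix-bound carrier of insulin-like growth factors, was at 23.7, 19.5 and 24.1 FPKM with AngII and 34.1, 48.5 and 47.9 FPKM with vehicle. Both were separated between groups, with log2 fold changes of -0.72 (SE 0.135) and -0.82 (SE 0.166). Timp3, the matrix-bound inhibitor of metalloproteinases, was at 244, 167 and 241 FPKM with AngII and 391, 371 and 467 FPKM with vehicle. Clu, the extracellular chaperone clusterin, was at 242, 201 and 238 FPKM with AngII and 346, 429.8 and 431 FPKM with vehicle. These are abundant transcripts, and their log2 fold changes were -0.78 (SE 0.173) and -0.70 (SE 0.144).

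Ptp4a1, a prenylated tyrosine phosphatase, had a larger difference, at 4.22, 4.02 and 1.35 FPKM with AngII and 15.7, 14.1 and 15.95 FPKM with vehicle. Its vehicle libraries were close together, whereas Ang2_933 was lower than the other two, and the log2 fold change was -2.13 (edgeR adjusted p = 0.263, SE 0.361, DESeq2 adjusted p = 4.92e-06). Arpp19, a phosphoprotein that inhibits PP2A at entry into mitosis, was at 1.57, 1.89 and 0.684 FPKM with AngII and 5.76, 10.4 and 13.8 FPKM with vehicle, with -2.70 (edgeR adjusted p = 0.295, SE 0.593, DESeq2 adjusted p = 0.00814). This gene model is a single stretch of 339 bases at 8:118444306-118444644. It held 10, 12 and 4 reads with AngII and 39, 68 and 94 with vehicle. Levels were also low with TRV023 (1.10, 1.76 and 1.57 FPKM) and losartan (1.34, 2.57 and 1.21 FPKM). Whether these reads come from the transcript that encodes the phosphoprotein was not tested. Ckmt1b, a mitochondrial creatine kinase, was at 12.6, 6.01 and 5.98 FPKM with AngII and 36.8, 37.5 and 18.9 FPKM with vehicle, with -1.80 (SE 0.341). Vehicle spanned a wide range in both of these genes. Tmem67, a protein of the ciliary transition zone, was at 2.38, 1.45 and 2.37 FPKM with AngII and 5.08, 4.82 and 5.24 FPKM with vehicle. Pi15, a secreted protease inhibitor, was at 2.797, 2.52 and 2.11 FPKM with AngII and 6.56, 5.995 and 6.04 FPKM with vehicle. Nrip1, a corepressor of nuclear receptors, was at 3.08, 3.46 and 2.61 FPKM with AngII and 5.63, 5.19 and 6.29 FPKM with vehicle. These last 3 genes are expressed at low levels, with log2 fold changes of -1.16 (SE 0.228), -1.19 (SE 0.253) and -0.77 (SE 0.163). All 12 lower genes were called by DESeq2, with adjusted p up to 0.0182. They were chosen for small p and separated groups in the same counts, so these calls are a description. Cxcl14, a chemokine of epithelium and stroma that the rule names separately, was at 25.9, 19.03 and 27.99 FPKM with AngII and 98.5, 58.97 and 40.7 FPKM with vehicle, with -1.31 (edgeR adjusted p = 0.295, SE 0.296, DESeq2 adjusted p = 0.00328).

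The gene of the receptor that AngII acts on did not pass the test. Agtr1a, the main AT1R gene of the rat, was at 24.2, 29.5 and 26.4 FPKM with AngII and 31.1, 34.7 and 35.1 FPKM with vehicle. The vehicle libraries were all above the AngII libraries in FPKM by a small margin, whereas on the TMM-scaled log2 CPM the groups overlapped, with a log2 fold change of -0.20 (edgeR adjusted p = 0.575, SE 0.1395) and a 95% interval of -0.51 to 0.12. Agtr2, the AT2 receptor, was at no more than 0.217 FPKM in any library and was too low to test. Agt, the precursor angiotensinogen, was at 18.6, 13.3 and 7.801 FPKM with AngII and 11.8, 5.31 and 7.93 FPKM with vehicle, with overlapping groups and 0.79 (edgeR adjusted p = 0.424, SE 0.3497). Enpep, which shortens AngII, was at 8.41, 7.898 and 7.32 FPKM with AngII and 9.65, 9.302 and 16.6 FPKM with vehicle, with -0.46 (edgeR adjusted p = 0.467, SE 0.233). This peptidase did not pass the test, although it was lower in each AngII library than in any vehicle library. Of the 11 tested members of the renin-angiotensin list 2 were higher and 0 lower at an unadjusted p under 0.05, with a median of -0.04 beside -0.02 for all genes. Without Veh_924 the counts were 1 higher and 1 lower, and the median went from -0.13 without Veh_924 to 0.16 without Ang2_933. The higher members were proteases that can form AngII outside the circulation. Cma1, the mast cell chymase, was at 279.8, 275 and 234 FPKM with AngII and 161, 227 and 137 FPKM with vehicle, with 0.72 (edgeR adjusted p = 0.325, SE 0.1896, DESeq2 adjusted p = 0.0333). Ctsg, cathepsin G of neutrophils and mast cells, was at 0.955, 1.06 and 4.900 FPKM with AngII and 0.598, 0.361 and 1.04 FPKM with vehicle, with 1.92 (edgeR adjusted p = 0.406, SE 0.795), and Ang2_933 alone was far above the rest. Agtr1b and Ace were not analysed here.

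Among 38 genes for the proteins that carry the AT1R signal, 3 were higher and 4 lower at an unadjusted p under 0.05, with a median of -0.04 that was 0.0031 without Veh_924. Over the libraries left out in turn, the higher count went from 1 without Ang2_931 or Veh_963 to 4 without Ang2_922 and the lower count from 2 without Ang2_931 or Veh_924 to 5 without Ang2_922 or Veh_923. Arrb2, β-arrestin 2, was at 51.95, 53.3 and 46.5 FPKM with AngII and 46.9, 40.2 and 39.1 FPKM with vehicle. Arrb1, β-arrestin 1, was at 12.8, 6.93 and 8.82 FPKM with AngII and 13.4, 16.8 and 12.7 FPKM with vehicle. The log2 fold changes had opposite signs, 0.40 (edgeR adjusted p = 0.37, SE 0.126) and -0.46 (edgeR adjusted p = 0.472, SE 0.239), and the edgeR adjusted p was 0.37 and 0.472. Rgs5, which speeds the shutoff of Gq and Gi in pericytes and smooth muscle, was at 20.5, 20.2 and 23.7 FPKM with AngII and 44.3, 47.4 and 148 FPKM with vehicle. Its AngII libraries were alike and below vehicle, where Veh_963 was far above the other two, and the log2 fold change was -1.77 (edgeR adjusted p = 0.32, SE 0.447, DESeq2 adjusted p = 0.00543) and -0.95 without Veh_963. Plcb4, a phospholipase C that Gq activates, was at 6.98, 6.32 and 7.47 FPKM with AngII and 10.1, 12.2 and 13.6 FPKM with vehicle, with -0.66 (edgeR adjusted p = 0.295, SE 0.158). Rock2, a kinase of smooth muscle contraction, was at 12.9, 6.54 and 8.68 FPKM with AngII and 13.5, 18.7 and 15.97 FPKM with vehicle, with -0.65 (edgeR adjusted p = 0.372, SE 0.225).

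Immediate early genes and other genes that AngII induces in cultured vascular cells held no shared direction. Of 47 tested members 3 were higher and 5 lower at an unadjusted p under 0.05, with a median of 0.05, and that median went from -0.23 without Ang2_931 to 0.16 without Ang2_922 as libraries were left out. The higher count went from 2 without Ang2_931 to 5 without Ang2_922, Ang2_933 or Veh_924, and the lower count from 1 without Veh_924 to 7 without Ang2_931. Nr4a1, an orphan nuclear receptor of the immediate early set, was at 12.2, 70.5 and 8.39 FPKM with AngII and 16.1, 19.5 and 15.6 FPKM with vehicle, so its log2 fold change of 0.99 (SE 0.692) rests on Ang2_931, and without that library it was -0.62. Ctgf, a matricellular target of AngII and TGF-beta, was at 247, 324 and 279 FPKM with AngII and 241, 367 and 556 FPKM with vehicle. Rcan1, a readout of calcineurin, was at 42.3, 53.8 and 51.6 FPKM with AngII and 46.04, 56.02 and 38.9 FPKM with vehicle. The groups overlapped in both, with log2 fold changes of -0.32 (edgeR adjusted p = 0.652, SE 0.284) and 0.21 (edgeR adjusted p = 0.629, SE 0.174). Dusp2, a phosphatase that switches off ERK in leukocytes, was at 15.7, 12.5 and 11.6 FPKM with AngII and 9.26, 7.64 and 8.62 FPKM with vehicle, with 0.77 (edgeR adjusted p = 0.295, SE 0.179, DESeq2 adjusted p = 0.026). Jund, a Jun family member of the AP-1 factor, was at 501, 414 and 485 FPKM with AngII and 334, 424 and 325 FPKM with vehicle, with 0.50 (edgeR adjusted p = 0.346, SE 0.147). Ereg, an epidermal growth factor receptor ligand, was at 0.832, 0.128 and 0.209 FPKM with AngII and 3.18, 5.099 and 1.01 FPKM with vehicle, with -2.85 (edgeR adjusted p = 0.352, SE 0.8496). Vcam1, an endothelial adhesion molecule, was at 45.6, 49.9 and 49.6 FPKM with AngII and 65.00, 72.9 and 68.4 FPKM with vehicle, with -0.37 (edgeR adjusted p = 0.372, SE 0.122). Both of these lay lower in each AngII library than in any vehicle library.

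In the list of endothelin, nitric oxide, prostacyclin and vascular tone, 2 of 37 tested members were higher and 2 lower at an unadjusted p under 0.05, with a median of -0.13 that was 0.02 without Veh_963. The lower count went from 2 without Ang2_931 or Veh_963 to 6 without Ang2_922 and the higher count from 0 without Ang2_931 to 1 without Ang2_922, Ang2_933, Veh_923, Veh_924 or Veh_963. Edn1, the precursor of the vasoconstrictor endothelin-1, was at 19.4, 20.8 and 23.2 FPKM with AngII and 22.6, 26.3 and 18.4 FPKM with vehicle, with 0.05 (edgeR adjusted p = 0.92, SE 0.177), a value whose sign changed with the scaling. Nos3, the endothelial nitric oxide synthase, was at 12.8, 16.6 and 19.95 FPKM with AngII and 12.8, 14.6 and 12.8 FPKM with vehicle, with 0.43 (edgeR adjusted p = 0.416, SE 0.188). Calcrl, the receptor for adrenomedullin and calcitonin gene-related peptide, both vasodilators, was at 11.8, 6.52 and 9.55 FPKM with AngII and 19.6, 33.6 and 15.04 FPKM with vehicle. It lay lower in each AngII library than in any vehicle library, like Ednrb, with -1.17 (edgeR adjusted p = 0.324, SE 0.303, DESeq2 adjusted p = 0.0201). Htr2b, the serotonin receptor linked to pulmonary hypertension, was at 4.55, 4.79 and 2.85 FPKM with AngII and 2.997, 2.05 and 2.65 FPKM with vehicle, with 0.79 (edgeR adjusted p = 0.396, SE 0.316). Bmpr2, the receptor mutated in heritable pulmonary arterial hypertension, was at 15.00, 9.89 and 11.5 FPKM with AngII and 16.6, 20.8 and 13.1 FPKM with vehicle, with -0.35 (edgeR adjusted p = 0.494, SE 0.196).

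For the endothelium as a whole, 1 of 21 tested markers were higher and 2 lower, with a median of 0.06 that went from -0.14 without Ang2_933 to 0.19 without Veh_924, and the lower count went from 1 without Veh_924 to 4 without Ang2_933 or Veh_923 and the higher count from 0 without Ang2_931, Ang2_933 or Veh_923 to 3 without Ang2_922 or Veh_924. Cdh5, the endothelial adherens junction cadherin, was at 77.6, 47.05 and 75.2 FPKM with AngII and 95.9, 109.5 and 107 FPKM with vehicle, with -0.52 (edgeR adjusted p = 0.372, SE 0.181). Sox18, an endothelial transcription factor, was at 79.4, 95.9 and 113 FPKM with AngII and 58.6, 92.3 and 69.3 FPKM with vehicle, with 0.53 (edgeR adjusted p = 0.391, SE 0.206). These markers pointed in different directions, and their summed level was 1965, 2712 and 2886 FPKM with AngII and 2136, 2876 and 2359 FPKM with vehicle. In a piece of lung, fewer cells of a type and less RNA per cell cannot be told apart.

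Smooth muscle markers had a median of -0.47 over 16 tested members, of which 2 were lower and 0 higher, and that median rested on Veh_963. The lower count went from 1 without Ang2_931, Ang2_933 or Veh_963 to 8 without Veh_923. Their mean log2 CPM, centred over the 6 libraries, was 0.07, -0.11 and -0.53 with AngII and -0.49, -0.03 and 1.09 with vehicle, and the median went from -0.72 without Veh_923 to 0.12 without Veh_963. Cald1, caldesmon, which restrains actomyosin, was at 59.02, 40.9 and 40.7 FPKM with AngII and 58.4, 77.3 and 83.8 FPKM with vehicle, with -0.52 (edgeR adjusted p = 0.372, SE 0.181). Acta2 was not analysed here. In the list of calcineurin and of platelet-derived, fibroblast and epidermal growth factor signalling, 5 of 25 were lower and 1 higher, with a median of -0.34, and the lower count went from 2 without Ang2_933 to 8 without Ang2_922. Fgfr1, a fibroblast growth factor receptor, was at 41.9, 34.1 and 33.3 FPKM with AngII and 49.3, 49.7 and 50.6 FPKM with vehicle. Ppp3cb, a catalytic subunit of calcineurin, was at 19.01, 14.8 and 16.4 FPKM with AngII and 23.95, 26.7 and 23.9 FPKM with vehicle. Each AngII library was below each vehicle library for both, with -0.32 (edgeR adjusted p = 0.372, SE 0.114) and -0.44 (edgeR adjusted p = 0.346, SE 0.1302).

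Matrix genes lay on the lower side. Of 38 tested collagen and fibrillar matrix genes, 6 were lower and 0 higher at an unadjusted p under 0.05 (15.8% against a background of 5.39%), with a median of -0.24 and 32 of 38 below 0. The mean log2 CPM of the list, centred over the 6 libraries, was -0.12, -0.20 and -0.10 with AngII and -0.03, 0.15 and 0.30 with vehicle. This was the 1 list of 56 whose AngII libraries all lay below the vehicle libraries, and 7 lists had all of them above. Such separation, AngII lower, was also seen for 9.17% of all single genes tested. Leaving libraries out, the lower count went from 2 without Ang2_931 to 10 without Veh_963 and the median from -0.28 without Veh_923 to -0.15 without Veh_963. With the length trend of each library removed the lower count was 2 of 38 and the median -0.13. Fbn1, fibrillin of elastic microfibrils, was at 30.4, 24.3 and 27.02 FPKM with AngII and 36.7, 39.2 and 46.2 FPKM with vehicle. Lamc1, a laminin chain of basement membrane, was at 58.4, 44.9 and 56.99 FPKM with AngII and 77.4, 82.4 and 68.6 FPKM with vehicle. Lox, which crosslinks collagen and elastin, was at 34.2, 16.1 and 20.8 FPKM with AngII and 33.9, 48.7 and 49.8 FPKM with vehicle. Col6a3, a chain of the microfibrillar collagen type VI, was at 14.9, 6.24 and 8.07 FPKM with AngII and 18.7, 15.2 and 22.1 FPKM with vehicle. Ang2_922 reached the vehicle range for Lox and lay close to it for Col6a3, whereas Fbn1 and Lamc1 were lower in each AngII library. The log2 fold changes were -0.45 (edgeR adjusted p = 0.355, SE 0.137), -0.38 (edgeR adjusted p = 0.381, SE 0.141), -0.78 (edgeR adjusted p = 0.372, SE 0.254) and -0.82 (edgeR adjusted p = 0.372, SE 0.277). Col1a1, the main chain of type I collagen, was at 393, 372 and 359 FPKM with AngII and 428, 492 and 457 FPKM with vehicle, with -0.16 (edgeR adjusted p = 0.641, SE 0.139). Col3a1, of type III collagen, was at 973, 680.1 and 827 FPKM with AngII and 1091, 1092 and 1066 FPKM with vehicle, with -0.26 (edgeR adjusted p = 0.521, SE 0.161). Of these 38 genes 0 were called by edgeR and 0 by DESeq2.

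Of 21 tested metalloproteinases and inhibitors, 0 were higher and 2 lower at an unadjusted p under 0.05, with a median of -0.01 that went from -0.10 without Veh_963 to 0.02 without Ang2_922, and the lower count went from 1 without Ang2_931 or Ang2_933 to 3 without Veh_924. Mmp2, the gelatinase of stromal cells, was at 251, 181 and 214 FPKM with AngII and 246, 272 and 255 FPKM with vehicle, with -0.13 (edgeR adjusted p = 0.704, SE 0.138). Timp1, the inducible inhibitor, was at 208, 349 and 276 FPKM with AngII and 375, 345 and 169 FPKM with vehicle, with overlapping groups and 0.06 (edgeR adjusted p = 0.951, SE 0.307), a value whose sign changed with the scaling. Apart from Timp3, the lower member was Adam8, a membrane-bound protease of leukocytes, at 21.9, 9.27 and 12.02 FPKM with AngII and 26.03, 17.3 and 45.01 FPKM with vehicle, with -0.92 (edgeR adjusted p = 0.403, SE 0.377). In the TGF-beta and BMP list 2 of 37 were higher and 2 lower, with a median of -0.13 that went from -0.26 without Ang2_922 to 0.009 without Veh_924, and the higher count went from 0 without Ang2_931 to 4 without Ang2_922 and the lower count from 1 without Ang2_931, Ang2_933 or Veh_924 to 7 without Ang2_922. Tgfb1, the ligand, was at 135, 140.3 and 156 FPKM with AngII and 138, 130.4 and 106 FPKM with vehicle, with 0.34 (edgeR adjusted p = 0.414, SE 0.143). Tgfbr3, the coreceptor betaglycan, was at 8.73, 4.14 and 6.31 FPKM with AngII and 11.2, 12.5 and 12.9 FPKM with vehicle, with -0.81 (edgeR adjusted p = 0.338, SE 0.228). Id3, a target of BMP signalling, was at 218, 298 and 198 FPKM with AngII and 172, 216 and 160.2 FPKM with vehicle, with 0.52 (edgeR adjusted p = 0.381, SE 0.194). The ligand Tgfb1 and the coreceptor had log2 fold changes of opposite sign, and Ang2_922 was the AngII library nearest to vehicle for both. Fstl1, a secreted modulator of BMP signalling, was at 50.5, 25.8 and 34.4 FPKM with AngII and 48.4, 62.8 and 68.6 FPKM with vehicle, with -0.58 (edgeR adjusted p = 0.391, SE 0.224), and Ang2_922 lay within the vehicle range.

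The transcripts of the mitochondrial genome were the list with the highest share of higher members. Mitochondrial DNA encodes 13 proteins of the respiratory chain and the ATP synthase, 2 ribosomal RNAs and a set of transfer RNAs, all copied from long polycistronic transcripts. All 13 protein genes were higher at an unadjusted p under 0.05 and were called by DESeq2, and the groups did not overlap for any of them. The median was 0.87, against -0.02 for all genes, and it went from 0.76 without Veh_963 to 1.05 without Ang2_922 with 13 of 13 higher each time. Their summed level was 93095, 118473 and 120236 FPKM with AngII and 64409.8, 73937 and 56021 FPKM with vehicle. Mt-co1, the catalytic subunit of cytochrome c oxidase and the most abundant of them, was at 22684, 27816 and 28976 FPKM with AngII and 14150.3, 17062 and 12558 FPKM with vehicle, with 1.0003 (edgeR adjusted p = 0.295, SE 0.219, DESeq2 adjusted p = 3.37e-05). ND1, of the proton-pumping arm of complex I, had the smallest difference, at 4836, 6191 and 6419.9 FPKM with AngII and 3783, 4439 and 3224 FPKM with vehicle, with 0.75 (edgeR adjusted p = 0.33, SE 0.2001, DESeq2 adjusted p = 0.0111). The order of libraries was alike across these genes, with Ang2_922 the lowest of its group for 12 of 13 and Veh_924 the highest of its group for 12 of 13. Mt-nd6, the protein gene on the opposite strand, was at 1355, 2047 and 1826 FPKM with AngII and 1099.6, 1205 and 887 FPKM with vehicle, with 0.85 (SE 0.205), near the median of the others.

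The 2 mitochondrial ribosomal RNAs and Mt-atp8 had the largest log2 fold changes of the transcripts of that genome. AY172581.24, the 16S ribosomal RNA at MT:1094-2664, was at 981, 1117 and 864 FPKM with AngII and 309.8, 484 and 424 FPKM with vehicle, with 1.42 (edgeR adjusted p = 0.192, SE 0.1999, DESeq2 adjusted p = 4e-09). Mt-atp8, an ATP synthase subunit, was at 354, 350.2 and 477 FPKM with AngII and 130.2, 205 and 156 FPKM with vehicle, with 1.40 (edgeR adjusted p = 0.192, SE 0.207, DESeq2 adjusted p = 1.99e-06). Its 204 bases at MT:7758-7961 overlap Mt-atp6 at MT:7919-8599, so reads of the shared stretch may be assigned to either, and Mt-atp6 had a log2 fold change of 0.89. In FPKM Ang2_922 was the highest of its group for the 12S RNA and lay between the other AngII libraries for the 16S RNA. With TMM scaling it was not the highest for the 12S RNA. Of 15 transfer RNA genes with enough reads to test, 6 were higher at an unadjusted p under 0.05 and all 15 had a positive log2 fold change, with a median of 0.87 and a range of 0.27 to 1.32. Library totals in place of TMM moved the fold changes of all genes by a median of -0.13. With that scaling the medians of 5 lists described here were below 0 in place of above it, namely immediate early genes (-0.09), the integrated stress response (-0.03), mitochondrial genome expression (-0.04), complement and coagulation (-0.12) and endothelium (-0.08). With the length trend removed, the medians of the AT1R transducers (0.01) and the metalloproteinases (0.02) were above 0.

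**Figure D3:**
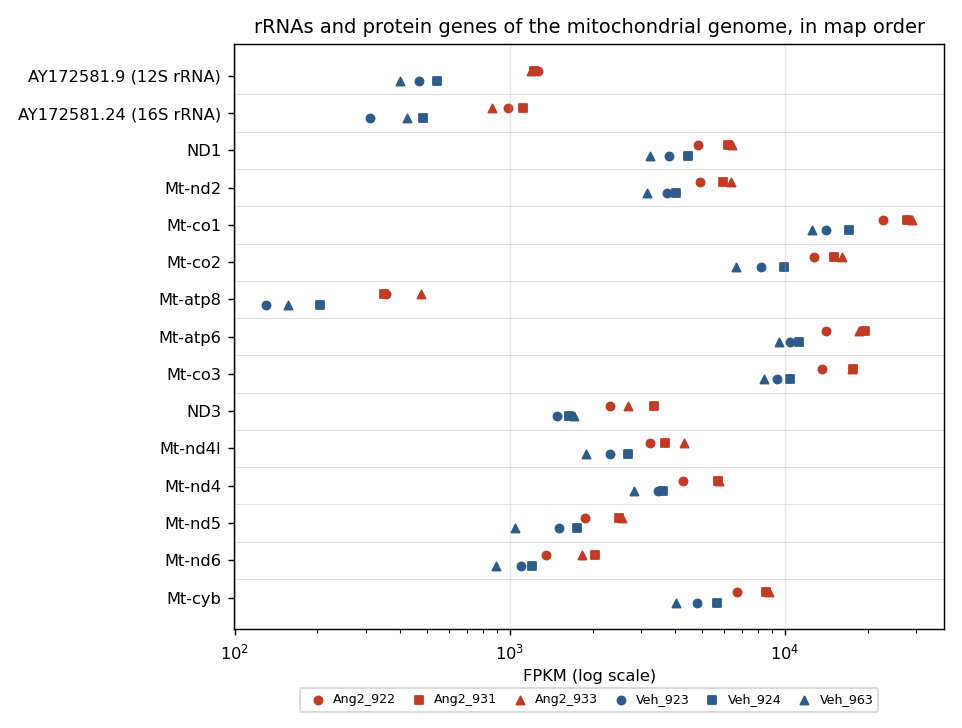
FPKM on a log axis of the 2 ribosomal RNAs and the 13 protein genes of the mitochondrial genome in each library, in map order from top to bottom. Each AngII library (red) lies above each vehicle library (blue) in all 15 rows, by the most for the ribosomal RNAs and Mt-atp8.

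Nuclear genes of the same respiratory complexes lay on the higher side, by counts that moved with the libraries left out and with gene length. Of 32 tested nuclear complex I subunits 14 were higher and 1 lower at an unadjusted p under 0.05, with a median of 0.30. Of 38 subunits of complexes II to V 16 were higher and 0 lower, with a median of 0.27. Among all tested genes 6.54% were higher. The complex I count went from 4 without Ang2_931 to 19 without Ang2_922, with 8 to 10 without any of the others, and that of complexes II to V from 6 without Ang2_931 to 22 without Ang2_922, with 8 to 13 without any of the others. Ndufa13, a complex I subunit also known as GRIM-19, was at 123, 152 and 150.0 FPKM with AngII and 90.03, 80.4 and 111 FPKM with vehicle, with 0.73 (edgeR adjusted p = 0.295, SE 0.171, DESeq2 adjusted p = 0.0246). Cox4i1, of cytochrome c oxidase, was at 545, 696 and 648 FPKM with AngII and 463, 452 and 546 FPKM with vehicle. Atp5h, of the ATP synthase stalk, was at 362, 429.7 and 393 FPKM with AngII and 309.7, 339 and 301 FPKM with vehicle. Their log2 fold changes were 0.51 (edgeR adjusted p = 0.367, SE 0.159) and 0.46 (edgeR adjusted p = 0.342, SE 0.131), and Ang2_922 was the AngII library nearest to vehicle for both, as for Ndufa13. With the length trend of each library removed 4 of 32 complex I subunits and 3 of 38 subunits of complexes II to V were higher, with medians of 0.12 and 0.10, whereas the mitochondrial genome kept 13 of 13 higher and a median of 0.75. The regulators of mitochondrial genome expression and biogenesis had 1 of 24 tested members higher, 0 lower and a median of 0.10, and the higher count went from 1 without Ang2_931, Ang2_933, Veh_923 or Veh_963 to 3 without Ang2_922. Tfam, which packages and transcribes mitochondrial DNA, was at 22.3, 23.02 and 26.5 FPKM with AngII and 19.7, 25.1 and 19.8 FPKM with vehicle, with 0.29 (edgeR adjusted p = 0.496, SE 0.163). Ppargc1a, the coactivator PGC-1alpha, was below 1 FPKM in each library. Esrra, a nuclear receptor that works with it, was the 1 higher member, at 26.9, 27.7 and 26.4 FPKM with AngII and 23.9, 19.8 and 20.2 FPKM with vehicle, with 0.48 (edgeR adjusted p = 0.335, SE 0.129).

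Promoters of the nuclear respiratory genes are shown because many of these genes lay on the higher side. The 250 bases before the start site were read from the RefSeq promoter table of GRCr8, which holds 7 of the 8 respiratory genes with the smallest p, 4 for each list. The letters CCGGAAG, the core that ETS factors such as GABP bind, and the NRF1 core motif were searched on both strands. Ndufa13 and Cox8a, at chr16:19560276-19560525 on the plus strand and chr1:213833624-213833873 on the minus strand, were the 2 of 7 that held the ETS letters, in capitals here as CCGGAAG or its reverse complement, and 0 of 7 held the NRF1 motif.
Ndufa13: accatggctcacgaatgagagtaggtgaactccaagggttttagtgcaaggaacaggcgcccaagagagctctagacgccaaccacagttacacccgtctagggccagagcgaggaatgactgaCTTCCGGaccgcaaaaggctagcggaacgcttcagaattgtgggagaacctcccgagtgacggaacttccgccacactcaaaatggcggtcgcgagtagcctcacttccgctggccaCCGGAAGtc
Cox8a: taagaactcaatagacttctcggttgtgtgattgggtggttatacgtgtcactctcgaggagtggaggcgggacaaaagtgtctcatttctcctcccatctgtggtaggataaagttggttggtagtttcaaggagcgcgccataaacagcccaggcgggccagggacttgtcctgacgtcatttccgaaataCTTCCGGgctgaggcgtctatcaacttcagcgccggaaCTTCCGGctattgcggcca
In Ndufa13 the matches ran from -126 to -120 and from -9 to -3 relative to the start, and in Cox8a from -57 to -51 and from -19 to -13. Cox8a, a subunit of cytochrome c oxidase, was at 313, 329 and 295 FPKM with AngII and 258, 251 and 278 FPKM with vehicle, with 0.39 (edgeR adjusted p = 0.355, SE 0.117). A promoter was found for 29 of 32 tested complex I genes but for only 18 of 38 of complexes II to V. The ETS letters were in 7 of 29 complex I promoters (24.1%) and 8 of 18 promoters of complexes II to V (44.4%). They were in 13.7% of the 10371 tested genes with a promoter and 7.74% of all 27457 promoters. The ETS letters were also in 15 of 58 cytosolic ribosomal protein promoters (25.9%) and 10 of 60 mitochondrial ribosomal protein promoters (16.7%). They were in 0 of 26 of the collagen list and 0 of 19 of the ciliated list. The NRF1 motif was in 5 of 29 complex I promoters (17.2%) and 2 of 18 of complexes II to V (11.1%). It was in 6 of 58 of the cytosolic (10.3%) and 7 of 60 of the mitochondrial ribosomal proteins (11.7%). The collagen list held it in 0 of 26 and the ciliated list in 4 of 19 (21.1%), against 8.35% of tested genes and 4.17% of all promoters. These matches describe the sequence and do not show binding, and Gabpa, the ETS subunit of GABP, was itself at 9.51, 7.07 and 7.33 FPKM with AngII and 9.99, 11.6 and 10.4 FPKM with vehicle, with -0.29 (edgeR adjusted p = 0.46, SE 0.143).

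Cytosolic ribosomal protein genes lay on the higher side, by a count that was lower without any of 4 libraries. Of 74 tested genes 45 were higher and 1 lower at an unadjusted p under 0.05, with a median of 0.40, beside 6.54% higher among all tested genes. With the length trend removed 18 were higher, with a median of 0.22. As libraries were left out, the higher count went from 15 without Ang2_931 or Veh_923 to 63 without Veh_963, and was 18 without Ang2_933 and 21 without Veh_924. Their centred mean log2 CPM was -0.10, 0.38 and 0.30 with AngII and -0.30, -0.27 and -0.02 with vehicle, where Ang2_922 lay below Veh_963. Rpl17, of the large subunit, was at 869, 1529 and 1407 FPKM with AngII and 687, 738 and 820.5 FPKM with vehicle, with 0.91 (edgeR adjusted p = 0.323, SE 0.231, DESeq2 adjusted p = 0.0135). Rpl18, also of the large subunit, was at 801, 1156 and 994 FPKM with AngII and 691, 683 and 673 FPKM with vehicle, with 0.67 (edgeR adjusted p = 0.324, SE 0.172, DESeq2 adjusted p = 0.0235). Ang2_922 was the AngII library nearest to vehicle for both. In FPKM Rps19 differed from these, with Ang2_922 its highest library, but with TMM scaling Ang2_922 was the lowest of its group.

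Genes for oxidant production and its control included 8 on the higher side. Of 27 tested members 8 were higher and 1 lower at an unadjusted p under 0.05, with a median of 0.25 and of 0.11 with the length trend removed. DESeq2 called 6 of the 27 higher, beside 0.925% of all genes it tested. The edgeR higher count went from 7 without Ang2_931 to 9 without Ang2_922, Ang2_933, Veh_923 or Veh_963. Cyba, p22phox, the membrane subunit that the NADPH oxidases of leukocytes and vessels share, was at 285, 365 and 337 FPKM with AngII and 233, 192 and 213 FPKM with vehicle, with 0.77 (edgeR adjusted p = 0.295, SE 0.152, DESeq2 adjusted p = 0.00247). Rac2, the GTPase of the leukocyte oxidase, was at 228, 194 and 183 FPKM with AngII and 137, 160.1 and 127 FPKM with vehicle, with 0.64 (edgeR adjusted p = 0.295, SE 0.133, DESeq2 adjusted p = 0.00346). For both, each AngII library was above each vehicle library, with Ang2_922 the highest for Rac2 and the lowest of its group for Cyba. Gpx1, which reduces hydrogen peroxide with glutathione, was at 884, 948 and 959 FPKM with AngII and 734, 676 and 651 FPKM with vehicle. Prdx5, a peroxidase of mitochondria and peroxisomes, was at 460.1, 623 and 524 FPKM with AngII and 432, 319 and 310.4 FPKM with vehicle. The log2 fold changes were 0.57 (edgeR adjusted p = 0.295, SE 0.131, DESeq2 adjusted p = 0.00328) and 0.74 (edgeR adjusted p = 0.317, SE 0.186, DESeq2 adjusted p = 0.0207).

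Macrophage genes of lipid handling and lysosomes lay on the higher side. The lipid-associated macrophage program, marked by the receptor Trem2, is found in macrophages that take up lipid and dead cells. Of 26 tested members 12 were higher and 0 lower at an unadjusted p under 0.05 (46.2% against a background of 6.54%), with a median of 0.45, and DESeq2 called 4. The count went from 4 without Ang2_931 to 13 without Veh_923 and was 6 without Veh_924, and the median went from 0.30 without Ang2_931 to 0.56 without Veh_923. With the length trend removed 8 were higher, with a median of 0.34. Trem2 was at 69.1, 129 and 73.2 FPKM with AngII and 50.6, 24.5 and 39.4 FPKM with vehicle, with the groups apart and Ang2_931 the highest, and its log2 fold change was 1.39 (edgeR adjusted p = 0.295, SE 0.322, DESeq2 adjusted p = 0.00259). Fabp4, a fatty acid carrier, was at 193, 167 and 144 FPKM with AngII and 124, 71.00 and 116 FPKM with vehicle, with 0.82 (edgeR adjusted p = 0.317, SE 0.208, DESeq2 adjusted p = 0.0278). Ctsd, the main aspartic protease of lysosomes, was at 1543, 1904 and 1344 FPKM with AngII and 1153, 743 and 1146 FPKM with vehicle, with 0.79 (edgeR adjusted p = 0.338, SE 0.223, DESeq2 adjusted p = 0.0235). Ctsz, another lysosomal cathepsin, was at 321, 326 and 337 FPKM with AngII and 289, 209 and 195 FPKM with vehicle, with 0.64 (edgeR adjusted p = 0.324, SE 0.166, DESeq2 adjusted p = 0.026). Veh_924 was the lowest library for Trem2, Fabp4 and Ctsd. Apoe, the lipid carrier of macrophages, was at 1356, 2749.7 and 2389.8 FPKM with AngII and 899, 752 and 1788 FPKM with vehicle, where Veh_963 lay above Ang2_922.

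Of 19 monocyte and interstitial macrophage markers 4 were higher and 0 lower, with a median of 0.27, and the count went from 1 without Veh_924 to 5 without Ang2_922 or Ang2_933. With the length trend removed 2 were higher. Cd68, a pan-macrophage marker, was at 149, 150.4 and 142 FPKM with AngII and 155, 84.9 and 94.6 FPKM with vehicle, with 0.54 (edgeR adjusted p = 0.395, SE 0.212) and Veh_923 above the AngII libraries in FPKM. C1qa, made by tissue macrophages, was at 339, 491 and 416 FPKM with AngII and 306, 306 and 254 FPKM with vehicle, with 0.67 (edgeR adjusted p = 0.332, SE 0.179, DESeq2 adjusted p = 0.0372), and each AngII library was above each vehicle library. Among 11 alveolar macrophage markers 1 was higher, Fabp4, and the median was -0.07, or 0.03 without Ang2_931. In the complement and coagulation list 5 of 32 were higher and 0 lower, with a median of 0.02 that went from -0.05 without Ang2_931 to 0.08 without Veh_923, and the higher count went from 5 without Ang2_931, Ang2_933, Veh_924 or Veh_963 to 7 without Ang2_922. Hp, haptoglobin, which binds free hemoglobin, was at 46.1, 42.1 and 38.2 FPKM with AngII and 31.1, 31.8 and 30.2 FPKM with vehicle, with 0.57 (edgeR adjusted p = 0.295, SE 0.121, DESeq2 adjusted p = 0.018). Hpx, hemopexin, which binds free heme, was at 9.24, 6.65 and 6.48 FPKM with AngII and 4.63, 3.11 and 1.64 FPKM with vehicle, with 1.38 (edgeR adjusted p = 0.338, SE 0.378, DESeq2 adjusted p = 0.0334). The groups did not overlap for either, and Ang2_922 was the highest library.

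Most genes of antigen presentation lay on the higher side, with a positive log2 fold change for 20 of 22 class I and 9 of 10 class II genes. Of 22 tested class I genes 7 were higher and 1 lower at an unadjusted p under 0.05, with a median of 0.37, and the higher count went from 5 without Veh_924 to 9 without Veh_923. RT1-CE5, another class I gene with the same assignment problem, was at 202, 229 and 209 FPKM with AngII and 122, 145 and 88.3 FPKM with vehicle, with 0.98 (edgeR adjusted p = 0.295, SE 0.187, DESeq2 adjusted p = 0.000359). RT1-T24-3, another class I gene, was at 42.3, 52.5 and 61.9 FPKM with AngII and 37.9, 19.95 and 37.1 FPKM with vehicle, with 0.86 (edgeR adjusted p = 0.354, SE 0.2602). The sum over the class I list, RT1-CE16 included, was 3195, 2899 and 2832 FPKM with AngII and 2812, 2749 and 2988 FPKM with vehicle, so that these sums overlapped although single copies differed. Tap1, which carries peptides to class I molecules, was at 42.9, 40.9 and 38.1 FPKM with AngII and 36.5, 36.5 and 30.03 FPKM with vehicle, with 0.38 (edgeR adjusted p = 0.372, SE 0.122). In the class II list 3 of 10 were higher and 0 lower, with a median of 0.37, and the count went from 1 without Ang2_931 to 5 without Ang2_922. RT1-Db1, a class II beta chain, was at 837, 1068 and 788 FPKM with AngII and 632, 583 and 450.0 FPKM with vehicle, with 0.83 (edgeR adjusted p = 0.295, SE 0.188, DESeq2 adjusted p = 0.00328). Cd74, the invariant chain, was at 2941, 3558 and 3274 FPKM with AngII and 2995, 2380.1 and 2719 FPKM with vehicle, with 0.41 (edgeR adjusted p = 0.41, SE 0.171).

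Mast cell markers were higher in 6 of 14 tested members (42.9%, against 6.54% of all tested genes) and lower in 0, with a median of 0.43. The count went from 3 without Veh_923 to 8 without Veh_924. Tpsb2, a mast cell tryptase, was at 349, 259 and 226 FPKM with AngII and 166, 217 and 165 FPKM with vehicle, with 0.73 (edgeR adjusted p = 0.295, SE 0.176, DESeq2 adjusted p = 0.0154). Tpsab1, the related tryptase, was at 198, 206 and 182 FPKM with AngII and 145, 186 and 142 FPKM with vehicle, with 0.44 (edgeR adjusted p = 0.372, SE 0.144). Kit, the growth factor receptor that mast cells depend on and that other lung cells also express, was at 19.3, 8.86 and 10.02 FPKM with AngII and 15.3, 22.3 and 14.1 FPKM with vehicle, with -0.32 (edgeR adjusted p = 0.646, SE 0.282), and the list's centred mean log2 CPM overlapped between groups. Lymphocyte markers had positive medians. Of 21 T and NK cell markers 3 were higher (14.3%, against 6.54% of all tested genes), with a median of 0.28. That count went from 1 without Ang2_931 or Veh_924 to 6 without Ang2_933. Cd3g, a chain of the T cell receptor complex, was at 24.1, 23.6 and 21.01 FPKM with AngII and 13.1, 8.94 and 18.9 FPKM with vehicle, with 0.88 (edgeR adjusted p = 0.372, SE 0.291). Cd3d, another chain of it, was at 14.1, 19.4 and 10.4 FPKM with AngII and 7.77, 6.01 and 10.05 FPKM with vehicle, with 1.02 (edgeR adjusted p = 0.372, SE 0.337). Veh_963 was the vehicle library nearest to AngII for both. Of 16 B and plasma cell markers 2 were higher (12.5%, against 6.54%), with a median of 0.41 that was 1.03 without Veh_963. Their count went from 2 without Ang2_931, Veh_923 or Veh_924 to 7 without Veh_963. Pax5, the B cell identity factor, was at 14.9, 10.6 and 8.19 FPKM with AngII and 3.92, 4.67 and 7.75 FPKM with vehicle, with 1.17 (edgeR adjusted p = 0.342, SE 0.334).

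Neutrophil markers had a median of 0.62, with 2 of 16 higher (12.5%, against 6.54% of all tested genes) and 0 lower. The higher count went from 1 without Ang2_931, Veh_923 or Veh_963 to 3 without Veh_924. Their centred mean log2 CPM was 0.24, 0.32 and 0.38 with AngII and -0.65, 0.01 and -0.31 with vehicle. S100a8, a calcium-binding alarmin of neutrophils, was at 142, 104 and 60.6 FPKM with AngII and 44.4, 93.5 and 39.5 FPKM with vehicle, with 0.91 (edgeR adjusted p = 0.406, SE 0.377). Platelet and megakaryocyte markers had a median of 0.83, with 1 of 14 higher, and that count went from 1 without Ang2_931, Ang2_933, Veh_923 or Veh_963 to 7 without Veh_924. Pf4, the platelet chemokine CXCL4, was at 195, 353 and 244 FPKM with AngII and 158, 174 and 161 FPKM with vehicle, with 0.83 (edgeR adjusted p = 0.336, SE 0.224, DESeq2 adjusted p = 0.048), and each AngII library was above each vehicle library. In the list of NF-kB cytokines and chemokines 2 of 43 were higher and 1 lower, with a median of 0.20 that went from 0.0022 without Veh_963 to 0.31 without Veh_924, the lower member being Cxcl14. The higher count went from 0 without Ang2_931 to 6 without Veh_924, and the lower count from 1 without Ang2_922, Ang2_933 or Veh_924 to 2 without Ang2_931, Veh_923 or Veh_963. Whether the shares of these leukocytes in the tissue pieces differed was not tested.

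**Figure D4:**
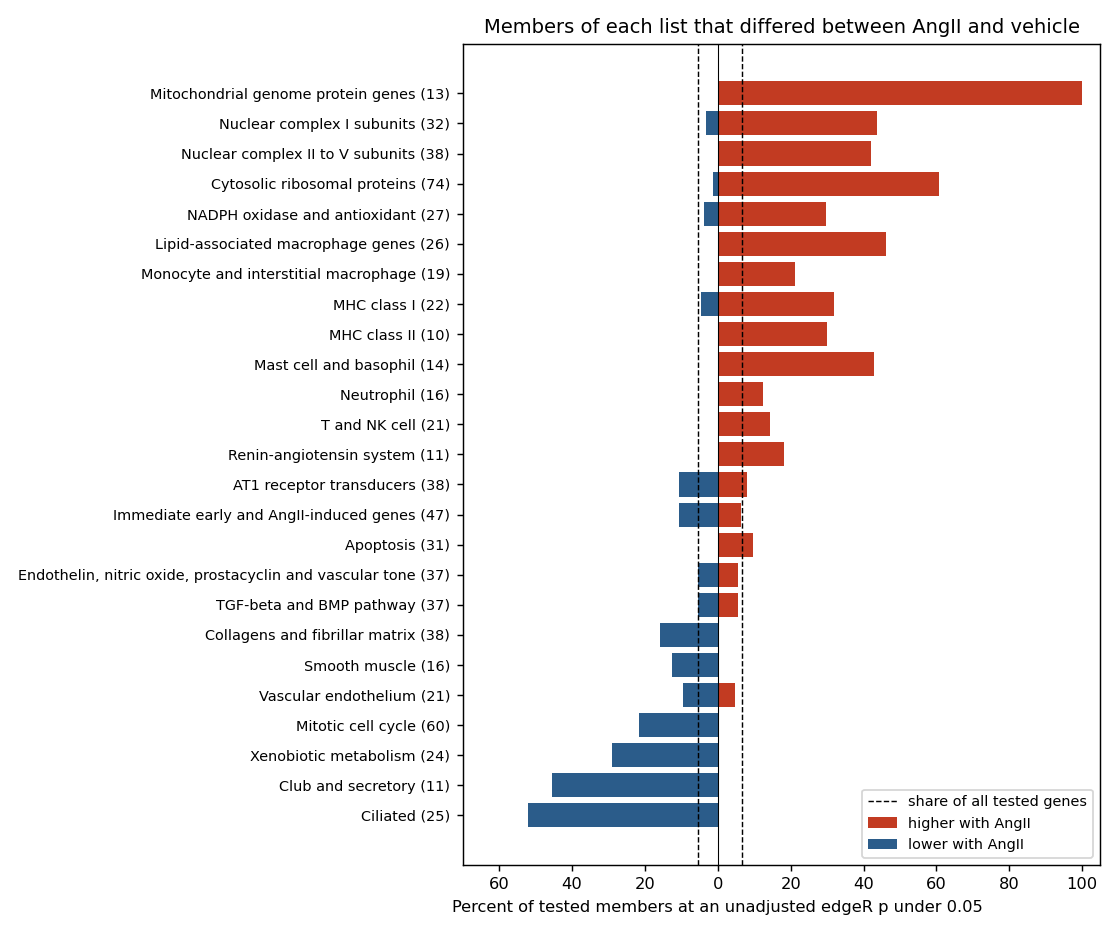
Percent of the tested members of each list (number in brackets) that were higher (red, right) or lower (blue, left) with AngII at an unadjusted edgeR p under 0.05. Dashed lines mark the share of all tested genes, 6.54% higher and 5.39% lower, and the longest bars are 13 of 13 mitochondrial protein genes on the higher side and 13 of 25 ciliated cell markers on the lower side.

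Ciliated and club cell markers had the lowest medians of the 56 lists, and Ang2_922 lay near vehicle for them. Of 25 tested ciliated cell markers 13 were lower (52.0%, against 5.39% of all tested genes) and 0 higher at an unadjusted p under 0.05. Their median was -1.27, and DESeq2 called 0 of them. Their centred mean log2 CPM was 0.33, -1.53 and -0.94 with AngII and 0.54, 0.19 and 1.41 with vehicle, so Ang2_922 lay within the vehicle range and Veh_963 was the highest. The lower count went from 3 without Ang2_933 or Veh_963 to 22 without Ang2_922, and the median from -2.26 without Ang2_922 to -0.86 without Veh_963. Ccdc39, which sets the spacing of the axoneme, was at 4.52, 4.32 and 3.86 FPKM with AngII and 7.403, 6.17 and 10.5 FPKM with vehicle, with -0.79 (edgeR adjusted p = 0.337, SE 0.215). Rsph1, of the radial spoke head, was at 11.9, 5.41 and 6.09 FPKM with AngII and 15.9, 14.5 and 26.7 FPKM with vehicle. Sntn, a protein of the ciliary tip, was at 3.41, 1.26 and 1.32 FPKM with AngII and 5.61, 3.84 and 14.3 FPKM with vehicle. Their log2 fold changes were -1.17 (edgeR adjusted p = 0.346, SE 0.344) and -1.88 (edgeR adjusted p = 0.367, SE 0.586), and Ang2_922 was the highest AngII library for each. Of 11 club and secretory cell markers 5 were lower, with a median of -0.71, and the count went from 0 without Veh_963 to 8 without Ang2_922. Scgb1a1, the club cell secretory protein, was at 13396, 6588 and 8381 FPKM with AngII and 14965, 12498 and 29879 FPKM with vehicle, with -0.90 (edgeR adjusted p = 0.396, SE 0.3602), and Veh_963 was the highest library by a wide margin. The amount of airway in each piece of lung is not known here, and its part in these values was not tested.

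Enzymes of xenobiotic metabolism, which club cells express, had a median of -0.53, with 7 of 24 lower and 0 higher, and the median was -0.0013 without Veh_963. The lower count went from 2 without Ang2_931 or Veh_963 to 9 without Veh_924. Cyp4b1, a lung cytochrome P450, was at 134, 71.4 and 79.8 FPKM with AngII and 184, 147 and 225 FPKM with vehicle, with -0.84 (edgeR adjusted p = 0.338, SE 0.236, DESeq2 adjusted p = 0.0448). Fmo5, a flavin monooxygenase, was at 5.84, 3.399 and 1.16 FPKM with AngII and 13.7, 9.46 and 12.4 FPKM with vehicle, with -1.66 (edgeR adjusted p = 0.338, SE 0.4603, DESeq2 adjusted p = 0.0223). For these 2 genes each AngII library was below each vehicle library and Veh_963 was not far above the other vehicle libraries. The alveolar lists held 0 members at an unadjusted p under 0.05 in either direction, with medians of -0.16 for type 1 cells and of 0.15 for type 2 cells, the latter at -0.02 without Veh_924.

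**Figure D5:**
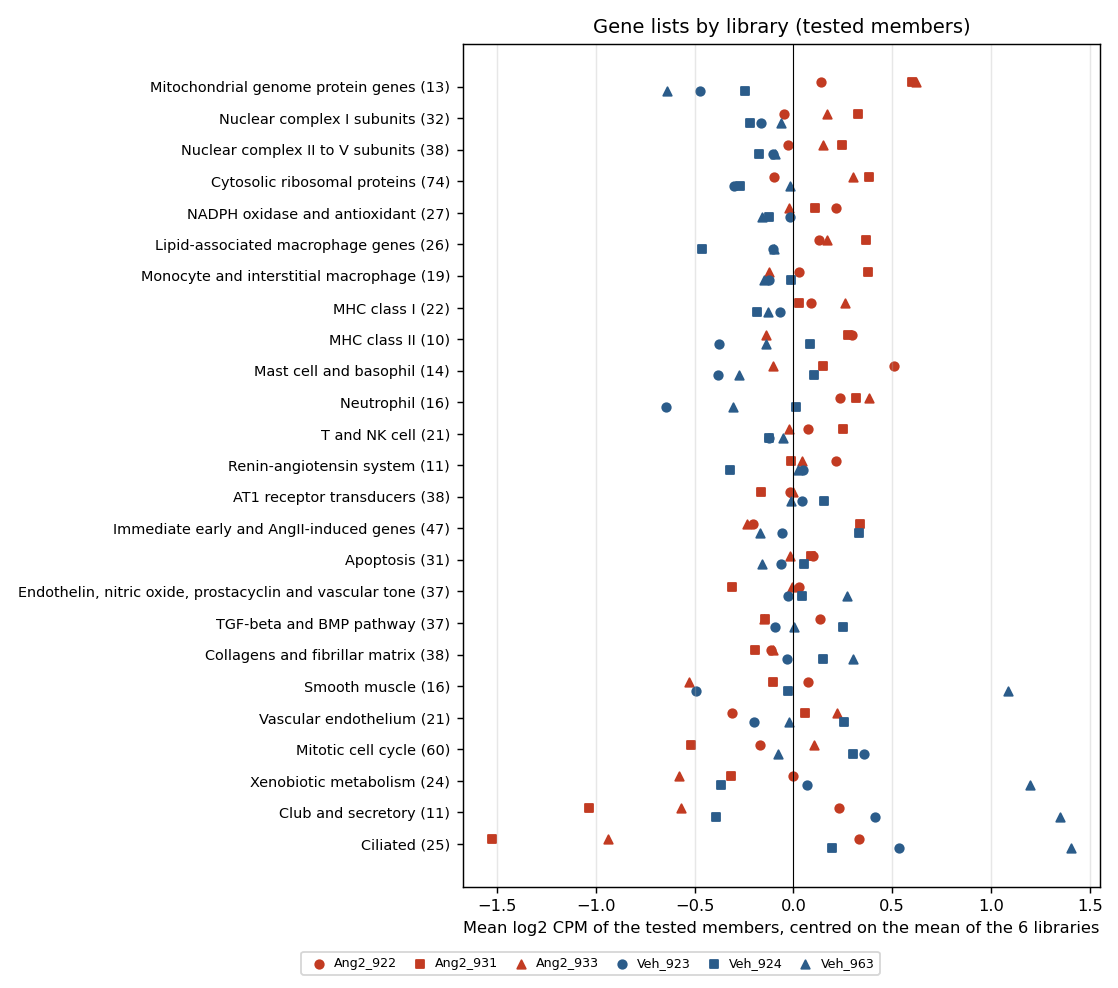
Mean log2 CPM of the tested members of each list (number in brackets) in each library, centred on the mean of the 6 libraries. Red symbols are AngII and blue symbols vehicle, and Ang2_922 (red circle) lies at 0.33 for ciliated cell markers, within the vehicle range of 0.19 to 1.41, but above the 3 vehicle libraries for the mitochondrial protein genes.

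The share of higher genes was 9.68% in the apoptosis list and 7.14% in the integrated stress and unfolded protein list. Both shares rest on small counts, so neither is read as a difference from the 6.54% of all tested genes. Of 31 tested apoptosis genes 3 were higher and 0 lower at an unadjusted p under 0.05, with a median of 0.17, and the higher count went from 1 without Ang2_931 to 5 without Ang2_933 or Veh_924. Bax, which opens the mitochondrial outer membrane, was at 133, 171 and 161 FPKM with AngII and 131, 129 and 91.9 FPKM with vehicle. Bbc3, the death factor PUMA, was at 42.3, 42.9 and 49.5 FPKM with AngII and 29.6, 38.2 and 24.6 FPKM with vehicle. Each AngII library was above each vehicle library for both, with 0.55 (edgeR adjusted p = 0.372, SE 0.178) and 0.68 (edgeR adjusted p = 0.335, SE 0.183). In the integrated stress and unfolded protein list 2 of 28 were higher, Gdf15 and Ddit3, the factor CHOP, which was at 30.6, 55.8 and 43.3 FPKM with AngII and 27.5, 30.5 and 33.1 FPKM with vehicle, with 0.65 (edgeR adjusted p = 0.376, SE 0.237). The median of that list was 0.10, and its higher count went from 1 without Ang2_931 or Veh_924 to 3 without Ang2_922 or Veh_963.

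Genes of mitosis had a median of -0.36, with 13 of 60 lower and 0 higher at an unadjusted p under 0.05. That is 21.7% lower, against 5.39% of all tested genes, and 0 were called by edgeR or by DESeq2. The lower count went from 3 without Ang2_931 to 15 without Veh_963, and was 6 without Veh_923, 4 without Veh_924 and 7 with the length trend removed. The centred mean log2 CPM was -0.17, -0.52 and 0.10 with AngII and 0.36, 0.30 and -0.08 with vehicle. Cdc20, which activates the anaphase-promoting complex, was at 6.74, 6.105 and 6.51 FPKM with AngII and 12.4, 12.5 and 8.700 FPKM with vehicle, with -0.66 (edgeR adjusted p = 0.356, SE 0.202). Smc4, a condensin subunit, was at 10.4, 7.698 and 10.1 FPKM with AngII and 13.8, 14.3 and 13.1 FPKM with vehicle, with -0.41 (edgeR adjusted p = 0.372, SE 0.141). Mki67, the proliferation marker Ki-67, was at 5.17, 3.57 and 5.82 FPKM with AngII and 6.94, 8.37 and 4.56 FPKM with vehicle, with overlapping groups and -0.32 (edgeR adjusted p = 0.597, SE 0.243). Of 18 tested clock genes 2 were higher and 0 lower, with a median of 0.16, and the higher count went from 1 without Ang2_931, Ang2_933, Veh_923 or Veh_924 to 4 without Veh_963. Dbp, a clock-controlled transcription factor with a strong daily rhythm, was at 11.5, 44.4 and 30.7 FPKM with AngII and 6.24, 6.77 and 15.03 FPKM with vehicle, with 1.78 (edgeR adjusted p = 0.346, SE 0.515). Nr1d1, the repressor REV-ERBalpha, was at 8.23, 21.8 and 37.5 FPKM with AngII and 8.11, 7.48 and 16.7 FPKM with vehicle, with 1.21 (edgeR adjusted p = 0.416, SE 0.523). The groups overlapped for both, and no source used here gives the time of day at which each lung was taken.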

How the data were processed

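RNA of about 10 mg of lung per rat, with RNA integrity numbers of about 8 to 9, was sequenced by a company for the authors. The authors deposited read counts per Ensembl gene and FPKM, which they scaled to gene length and to the counted reads of each library, mitochondrial reads included. The table lists genes with at least 1 read in an AngII library: 0 of its genes were at 0 in all 3 AngII libraries and 344 were at 0 in all 3 vehicle libraries, so genes read with vehicle alone could not be called lower. No source used here gives the aligner, counter, build, annotation or strand setting. The deposited columns of fold changes and p-values hold the authors' own comparison and were not used. Depth was 17240865 to 20080943 counts per library, which limits the precision for low genes. Coordinates are as deposited.

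Counts were tested with edgeR 4.0.16 (quasi-likelihood, filterByExpr, TMM) between the 3 AngII and 3 vehicle libraries in R 4.3.3, with p-values adjusted by the method of Benjamini and Hochberg over the 15059 genes tested. DESeq2 1.42.0, limma 3.58.1 on counts and on log2(FPKM + 1) or log2(FPKM + 0.1), other scalings, other filters, a fit of all 4 groups, removal of each library's trend with gene length (lowess, span 0.3) and leaving out each library were alternatives. DESeq2 with each library left out was added after the data were seen. Scripts were tested on simulated data with 15059 genes. There edgeR recovered 2.08% of genes changed 1.5-fold, 42.9% of those changed 2-fold and 88% of those changed 8-fold, with 14 false calls. Changes near 1.5-fold would therefore mostly be missed. Groups were taken from the labels. Principal components and scores used log2 CPM with a prior count of 2. A score is the mean over the tested members of a list, centred over the 6 libraries. The members and the 56 gene lists were chosen with earlier results of these data known. Genes were named if edgeR called them, if they were among the 12 higher or 12 lower with the smallest p, separated groups and a mean of at least 1 FPKM (clone and accession names left out), if they were among the 4 with the smallest p or the leading markers of a list described, or if they were in a short list of AngII and pulmonary hypertension genes. The mitochondrial ribosomal RNAs and Mt-co1, Mt-atp6, Mt-nd6 and Kit were described with their lists. Some genes that this rule names are not reported here. The share of mitochondrial counts was compared with an exact permutation test in scipy 1.17.1. The labels and methods give 3 rats per group, and p-values measure the spread between these rats.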

Additional observations from a re-analysis of the deposited data

How the results depend on the processing

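The edgeR count of 2 genes was 204 by DESeq2, and 1 each with limma-voom, limma on log2(FPKM + 1), limma on log2(FPKM + 0.1), library totals, mitochondrial counts left out, the gene length trend removed and all 4 groups in 1 fit. It went from 0 (without Ang2_931 or Ang2_933) to 3 (without Ang2_922). The DESeq2 count of 204 went from 69 (without Ang2_931) to 1308 (without Ang2_922). The count of higher genes at an unadjusted p under 0.05, 985, was 431 and 426 with limma on log2(FPKM + 1) and log2(FPKM + 0.1) and 422 with library totals, and went from 551 (without Ang2_931) to 1452 (without Ang2_922). That of lower genes, 811, was 1448, 1444 and 1630 in the same alternatives, and went from 469 (without Ang2_931) to 1690 (without Ang2_922). The difference in mitochondrial share, 4.79 percentage points, kept its direction in each alternative, from 4.30 without Ang2_933 to 5.66 without Ang2_922, and was 3.16 without Mt-co1.

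Of the named genes, 4 reversed in sign under at least 1 alternative, each at adjusted p over 0.7 there. Timp1 was at -0.0389 and -0.0388 with limma on log2(FPKM + 1) and log2(FPKM + 0.1), -0.0912 with library totals and -0.1376 with the length trend removed, and from -0.2238 without Veh_963 to 0.2676 without Ang2_922. Edn1 was at -0.0728 and -0.0754 with the same limma fits and -0.0871 with library totals, and from -0.0698 without Veh_963 to 0.18 without Veh_924. Leaving out single libraries took Nr4a1 from -0.6202 without Ang2_931 to 1.4607 without Ang2_933 and Ctgf from -0.57 without Veh_923 to 0.0399 without Veh_963. The causes were not tested. No paired analysis was possible because the groups share no replicate numbers. Limits are 3 rats per group, the position of Ang2_922, reads that near-identical genes share, and the fact that low genes had too few counts to test.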

Other observations

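Of the gene groups not described so far, mitochondrial ribosomal proteins, which translate the transcripts of the mitochondrial genome, had 7 of 74 tested members higher and 2 lower at an unadjusted p under 0.05, with a median of 0.17, and the higher count went from 1 without Ang2_931 or Ang2_933 to 20 without Ang2_922. With the length trend removed 2 were higher and 2 lower, with a median of 0.039. Proteasome subunits, which degrade proteins and generate peptides for MHC class I, had 5 of 34 higher and 0 lower, with a median of 0.10, and the higher count went from 1 without Ang2_933 to 10 without Ang2_922 and was 1 with the length trend removed. Interferon-stimulated genes had 3 of 33 higher and 1 lower, with a median of 0.09, and the higher count went from 2 without Ang2_933, Veh_923 or Veh_924 to 5 without Ang2_922. Mesothelial markers, of the outer lining of the lung, had 2 of 9 lower and 0 higher, with a median of -0.41 that was 0.03 without Ang2_933 and -0.19 without Veh_923, and a lower count from 1 without Ang2_931 or Veh_923 to 3 without Ang2_922. Fibroblast markers had 2 of 15 lower and 0 higher, with a median of -0.26 that was 0.12 without Veh_963, and a lower count from 0 without Ang2_931, Ang2_933 or Veh_963 to 5 without Veh_923.

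In lists with few members at an unadjusted p under 0.05, the citric acid cycle and fatty acid oxidation list had a median of -0.02 over 35 tested genes, beside 0.27 for the nuclear subunits of complexes II to V. Glycolysis and hypoxia genes had a median of 0.06 over 26, and the 50 genes of DNA replication were at a median of 0.03, beside -0.36 for genes of mitosis. These differences between lists were not tested. With library totals in place of TMM, the medians were below 0 for proteasome (-0.03), interferon-stimulated (-0.04), glycolysis (-0.08) and DNA replication genes (-0.11).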
